A study of Mus musculus with 8 samples.

Results

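The immediate early genes examined were Fos, Fosb, Jun, Junb, Atf3, Egr1, Egr2, Egr3, Nr4a1 and Ier2. They were taken by gene symbol from the array's platform annotation, and all 10 had at least 1 array feature among the 20863 gene symbols on the array. After removal of dim features 9 of the 10 were tested, among 17234 tested genes, and the dim one was Egr3. The study profiled lungs of newborn C57Bl/6J mice on 8 one-colour Agilent arrays (Cy3). Every pup had been kept in a chamber at 85% oxygen from birth (P0) to P3. Of the arrays, 4 carried the genotype label Fgf10 +/- (TG in their titles) and 4 the label wild-type. No room-air group was analysed here, so each value describes lungs under oxygen. The Fgf10 allele is not described in the labels, and nothing ties the arrays to separate litters. The p-values therefore rest on the spread between these samples, which may be technical. For each gene limma draws that spread towards the spread of genes of like level. Arrays are named below by genotype label and the replicate number in their title, and all levels are deposited log2 intensities.

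Immediate early genes are transcribed within minutes of a stimulus from factors already present in the cell, without new protein synthesis. ERK and p38 MAP kinases reach their promoters through SRF with its ELK partners at CArG boxes, and cyclic AMP and calcium reach them through CREB at cyclic AMP response elements (CRE). FOS and JUN proteins pair into the AP-1 factor, the EGR proteins are zinc-finger factors, and NR4A1 is an orphan nuclear receptor. In lung they answer growth factors, stretch, oxidants and inflammation, and also the handling of tissue before RNA is fixed, and their messengers decay fast.

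RefSeq promoter windows (GRCm38.p6) matched 7 of the 10 genes, in 11 windows, and none was given for Egr1, Egr3 and Ier2. The 250 bases before the annotated start are shown for Fos, Nr4a1, Junb, Egr2 and Atf3, picked from the matched genes. Egr1, which had the largest difference below, cannot be shown. Each is printed 5′ to 3′ on the strand of the gene, and capitals mark every motif match found. The windows are Fos (chr12:85473640-85473889, plus strand), Nr4a1 (chr15:101266596-101266845, plus strand), Junb (chr8:84978749-84978998, minus strand), Egr2 (chr10:67537619-67537868, plus strand) and Atf3 (chr1:191183334-191183583, minus strand).
Fos: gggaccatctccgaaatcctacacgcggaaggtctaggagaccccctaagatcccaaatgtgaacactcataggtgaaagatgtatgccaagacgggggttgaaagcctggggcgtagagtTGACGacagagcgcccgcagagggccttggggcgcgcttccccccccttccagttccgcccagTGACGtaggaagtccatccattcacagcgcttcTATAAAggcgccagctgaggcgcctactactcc
Nr4a1: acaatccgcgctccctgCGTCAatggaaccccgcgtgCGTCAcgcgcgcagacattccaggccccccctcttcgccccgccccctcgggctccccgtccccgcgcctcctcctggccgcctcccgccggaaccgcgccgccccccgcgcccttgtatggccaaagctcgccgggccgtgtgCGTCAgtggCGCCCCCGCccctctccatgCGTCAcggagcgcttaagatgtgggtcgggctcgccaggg
Junb: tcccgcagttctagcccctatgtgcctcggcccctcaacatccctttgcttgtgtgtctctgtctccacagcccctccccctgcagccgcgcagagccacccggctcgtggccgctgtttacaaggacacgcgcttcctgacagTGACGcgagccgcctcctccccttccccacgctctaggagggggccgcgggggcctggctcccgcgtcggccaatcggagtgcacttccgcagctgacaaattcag
Egr2: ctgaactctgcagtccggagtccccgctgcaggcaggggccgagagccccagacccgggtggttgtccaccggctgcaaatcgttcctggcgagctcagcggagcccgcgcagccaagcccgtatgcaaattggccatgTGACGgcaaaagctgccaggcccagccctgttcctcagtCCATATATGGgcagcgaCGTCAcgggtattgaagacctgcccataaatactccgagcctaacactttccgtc
Atf3: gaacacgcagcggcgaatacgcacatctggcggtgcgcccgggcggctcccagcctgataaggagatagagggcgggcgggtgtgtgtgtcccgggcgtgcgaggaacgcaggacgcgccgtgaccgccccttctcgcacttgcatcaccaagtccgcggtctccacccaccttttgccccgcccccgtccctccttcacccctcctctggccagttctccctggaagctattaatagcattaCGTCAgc

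The motifs searched, on both strands of the 250 bases, were the full CRE (TGACGTCA), the AP-1 site (TGANTCA), the CArG box, the EGR site (GCGNGGGCG), the NR4A site NBRE (AAAGGTCA) and the TATA box (TATAAA). The CRE core TGACG, which lies within the full CRE, was added after the windows had been seen. A TATA box was found in Fos, 33 to 28 bases before its start, and in 12.4% of all 32851 windows. A CArG box was found in Egr2, 72 to 63 bases before the start in the window printed, and in 1.47% of all windows. Egr2 had more windows in which to match than the other genes. Sites further upstream than 250 bases were not searched, so a motif without a match here may still lie there. An EGR site lay 60 to 52 bases before the start of Nr4a1, read on the opposite strand, and 50 to 42 bases before that of Fosb, against 4.7% of all windows. The full CRE (1.55% of windows), the AP-1 site (6.75%) and the NBRE (1.34%) had no match in the 7 genes. The CRE core matched in at least 1 window of 6 of the 7 genes, all except Jun. It was found in 17.8% of all windows, a share per window and not per gene. The core holds the letters CG, and the windows of these genes had 54 to 74.4% G and C. The median over all windows was 52.4%, so the count and the share are not alike and no enrichment is read from them. Nr4a1 held 4 matches of the core, a count reached in 0.137% of windows, Fos held 2, and Junb and Atf3 held 1 each. A match is a description of the letters and no evidence of binding.

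No immediate early gene passed the test between the genotypes. In a limma fit over all 17234 genes, 0 of the 9 tested genes were called higher or lower at a Benjamini-Hochberg adjusted p below 0.05, against 0.226% of all genes called higher and 0.569% called lower. At an unadjusted p below 0.05 there were 3 of 9 (Nr4a1, Egr1 and Junb), all with higher values under the label Fgf10 +/-, against 5.39% of all genes in that direction. In 8 of 9 the difference (Fgf10 +/- minus wild-type) was above 0, as in 51.3% of all genes. The median difference of the 9 was 0.28 on the log2 scale against 0.0069 over all genes. Of all genes 15.1% had a difference at least that large. The 9 also varied more within groups, with a median SD of 0.39 against 0.26 over all genes. Larger differences in either direction are therefore likelier for them than for a typical gene. The groups did not overlap for 2 of the 9, Nr4a1 and Junb, with the arrays labelled Fgf10 +/- on top, against 3.13% of all genes. The 9 genes share the same 8 libraries, so they are no independent repeats of the comparison.

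**Figure D1:**
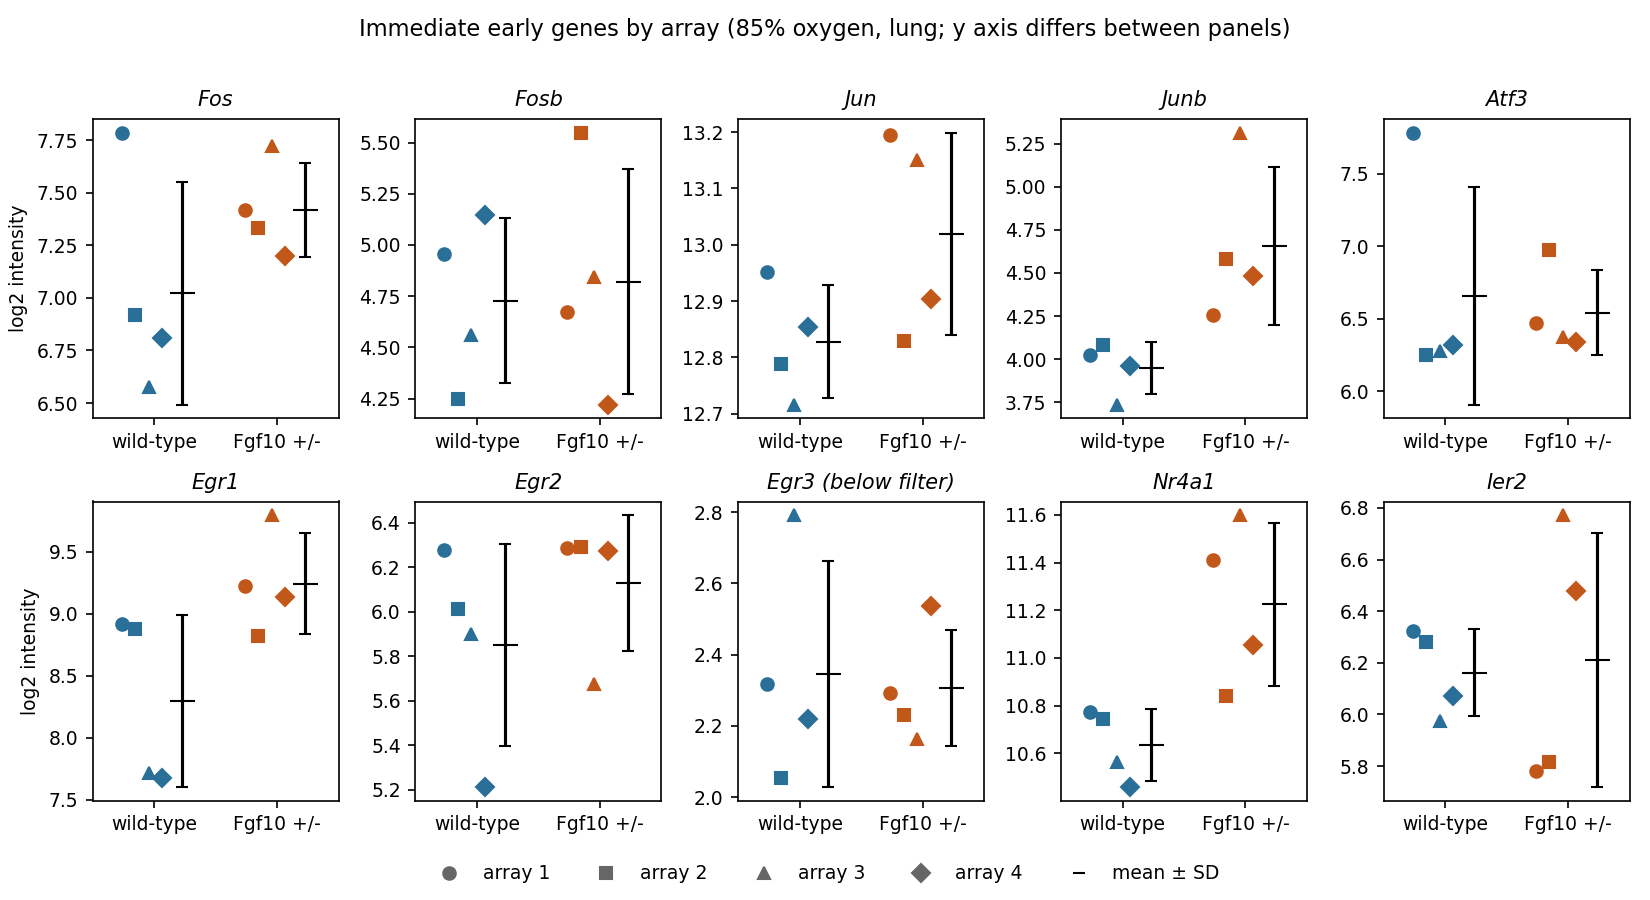
Log2 intensity of each immediate early gene (y axis, scale differs between panels) in the 4 wild-type arrays (blue) and the 4 arrays labelled Fgf10 +/- (orange), with mean ± SD in black. The groups lie apart for Nr4a1 and Junb, and overlap for the other 8 genes, including Egr3, which lay below the filter on dim features.

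Nr4a1, the orphan receptor induced by mitogens and inflammatory signals, came nearest to the threshold. It read 11.41, 10.84, 11.60 and 11.06 in Fgf10 +/- arrays 1 to 4, and 10.77, 10.74, 10.56 and 10.46 in wild-type arrays 1 to 4. Every Fgf10 +/- array was above every wild-type array, but array 2 was above the highest wild-type array by less than the SD of either group. The means were 11.23 ± 0.34 and 10.64 ± 0.15 (SD, n = 4 each), a 1.51-fold difference (log2 0.59, 95% CI 0.28 to 0.90, limma adjusted p = 0.0855). Leaving out Fgf10 +/- array 2 gave a difference of 0.72 that was called (limma adjusted p = 0.0366), the 1 call of an immediate early gene among the 8 fits with 1 array left out. In the other 7 of those fits Nr4a1 was not called, and over all settings tried its limma adjusted p ran from 0.0366 to 0.331.

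Egr1, a zinc-finger factor and a standard readout of ERK activity, had the largest difference of the 9. Its values were 9.22, 8.82, 9.80 and 9.13 in Fgf10 +/- arrays 1 to 4 and 8.92, 8.87, 7.71 and 7.67 in wild-type arrays 1 to 4. The wild-type arrays fell into a high pair (arrays 1 and 2) and a low pair (arrays 3 and 4), and the high pair overlapped Fgf10 +/- array 2. The means were 9.24 ± 0.41 and 8.29 ± 0.69 (SD, n = 4 each), a 1.93-fold difference (95% CI 1.26 to 2.96, limma adjusted p = 0.181). The difference (log2) was 0.95 over all arrays, 1.16 without wild-type array 1 and 0.74 without wild-type array 4. The within-group SD of Egr1 was 0.57, larger than in 98.3% of the genes of like level (500 on each side of it). The fit draws so large an SD towards that of genes of like level, which narrows the interval above. Over the settings tried the limma adjusted p of Egr1 ran from 0.0653 to 0.433, the latter without the variance trend.

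Egr2, a relative of Egr1 best known from hindbrain and Schwann cells, read 6.28, 6.29, 5.67 and 6.27 in Fgf10 +/- arrays 1 to 4. Its wild-type values were 6.28, 6.01, 5.90 and 5.21 for arrays 1 to 4. Fgf10 +/- array 3, which had the highest Egr1, had the lowest Egr2 of its group, and wild-type array 4 was the lowest of all. The difference was 0.28 (SE 0.26, limma adjusted p = 0.759). It was 0.065 without wild-type array 4 and 0.43 without Fgf10 +/- array 3. Egr3, another EGR factor, had a mean of 2.33, under the filter level of 2.76. Its values were 2.29, 2.23, 2.16 and 2.54 in Fgf10 +/- arrays and 2.32, 2.05, 2.79 and 2.22 in wild-type arrays. Its groups overlapped, and it was not tested. No detection call was used here, so whether Egr3 was measured above background is not known. With Egr3 included the median of the 10 differences was 0.24, and 8 of 10 were above 0.

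Among the AP-1 genes, Junb, a JUN protein that often restrains JUN activity, read 4.26, 4.58, 5.31 and 4.48 in Fgf10 +/- arrays 1 to 4. In wild-type arrays 1 to 4 it read 4.02, 4.08, 3.74 and 3.96. The groups lay apart, and Fgf10 +/- array 3 was the highest. The difference was 0.71 (95% CI 0.05 to 1.37, limma adjusted p = 0.401), and 0.49 without that array. The feature was dim, with a wild-type mean of 3.95, so the same doubt about background holds. Its within-group SD of 0.34 was larger than in only 7.19% of genes of like level.

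Jun, the main partner of FOS, was bright and varied least, with 12.83 to 13.19 in Fgf10 +/- arrays and 12.72 to 12.95 in wild-type arrays. The ranges overlapped and the difference was 0.19 (95% CI -0.01 to 0.39, limma adjusted p = 0.463). Fosb, a close relative of FOS, ranged from 4.22 to 5.55 in Fgf10 +/- arrays and from 4.25 to 5.15 in wild-type arrays. Its difference of 0.09 (SE 0.33, limma adjusted p = 0.946) was -0.15 without Fgf10 +/- array 2 and -0.07 without wild-type array 2.

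Fos is measured by 10 features of the same accession. Whether these are different probes or repeated spots of 1 probe is not known here, as no probe sequences were used. The feature with the highest mean, which represents the gene in the fit, read 7.42, 7.33, 7.72 and 7.20 in Fgf10 +/- arrays 1 to 4 and 7.79, 6.92, 6.58 and 6.81 in wild-type arrays 1 to 4. It gave a difference of 0.40 (SE 0.24, limma adjusted p = 0.577), the largest of the 10 features, whose differences ran from -0.16 to 0.40 with 9 of 10 above 0. That feature was the highest of the 10 in each Fgf10 +/- array and the lowest of the 10 in wild-type array 1. The mean of the 10 features was 6.84, 6.88, 7.34 and 6.84 in Fgf10 +/- arrays and 7.94, 6.62, 6.16 and 6.62 in wild-type arrays. Wild-type array 1 was thus the highest of all 8 arrays, in all 10 features, and the other wild-type arrays were the 3 lowest. On the mean of 10 features the groups read 6.98 ± 0.25 and 6.84 ± 0.77 (SD, n = 4 each), a difference of 0.14 (95% CI -0.53 to 0.81, limma adjusted p = 0.918 when every gene is averaged over its features). Without wild-type array 1 that difference was 0.51 (95% CI 0.08 to 0.94, limma adjusted p = 0.337), an alternative chosen after the values were seen. The median SD among the 10 features within an array was 0.25. If they are spots of 1 probe, this is the noise between spots only.

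**Figure D2:**
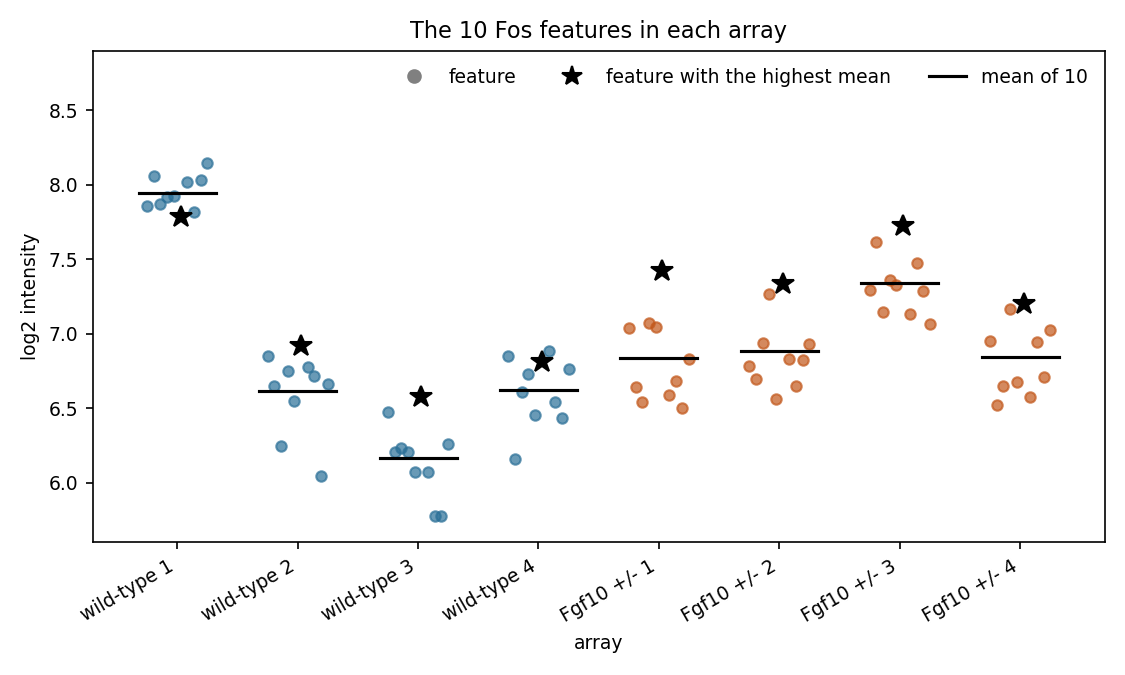
Log2 intensity (y axis) of the 10 Fos features in each of the 8 arrays (x axis), wild-type in blue and Fgf10 +/- in orange. Bars are the mean of the 10, and the star is the feature with the highest mean over all arrays, which lies at the bottom of the 10 in wild-type array 1 and at the top in the 4 arrays labelled Fgf10 +/-.

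Atf3, a stress-induced factor that pairs with JUN proteins and restrains inflammatory genes, was the 1 tested member with a difference below 0. It read 7.79 in wild-type array 1 and 6.25, 6.28 and 6.32 in wild-type arrays 2 to 4. Fgf10 +/- arrays 1 to 4 read 6.47, 6.97, 6.38 and 6.34, each above wild-type arrays 2 to 4 and below wild-type array 1. The difference was -0.12 (SE 0.31, limma adjusted p = 0.926) over all arrays and 0.26 (limma adjusted p = 0.713) without wild-type array 1. Over the settings tried the adjusted p of Atf3 ran from 0.713 to 0.979 and that of Fos from 0.14 to 0.918. The within-group SD was larger than in 97.1% of genes of like level for Atf3, and 91.4% for the Fos feature used. Ier2, a nuclear protein of the early growth response, ranged from 5.78 to 6.77 in Fgf10 +/- arrays and from 5.97 to 6.32 in wild-type arrays. The wild-type range lay within the Fgf10 +/- range, and the difference was 0.05 (SE 0.25, limma adjusted p = 0.962).

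**Figure D3:**
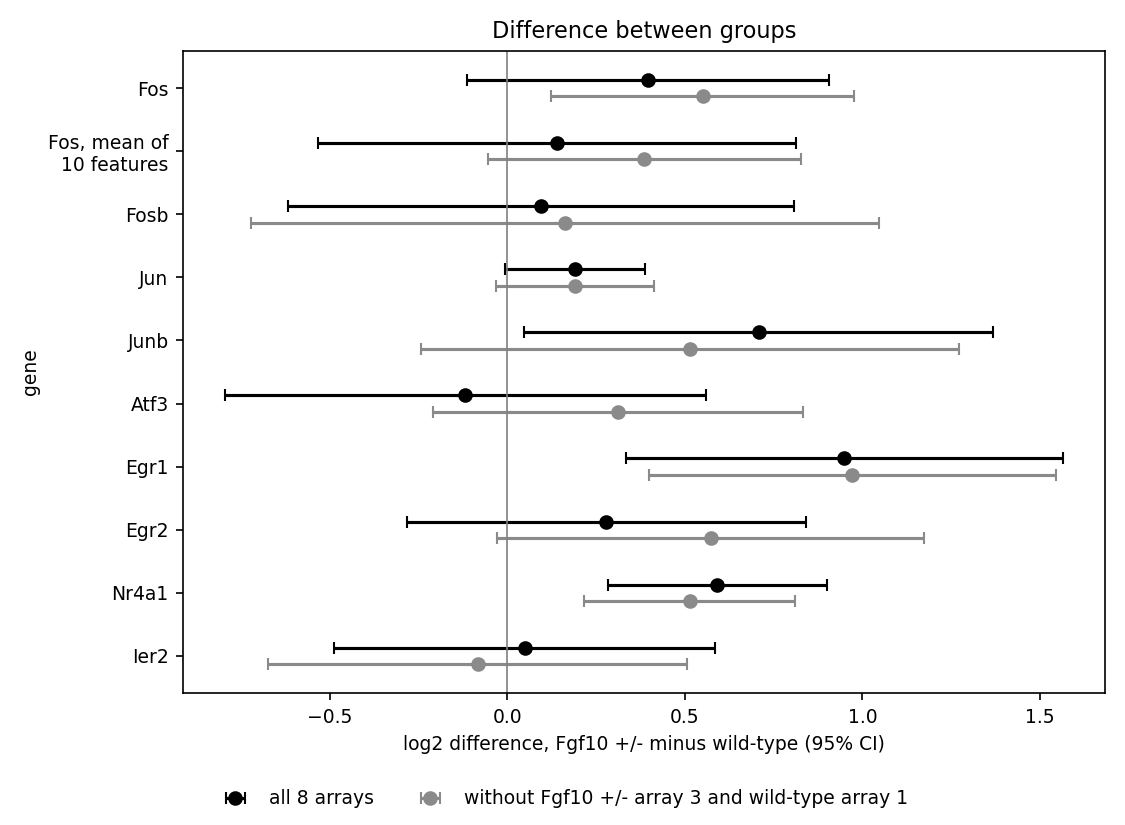
Log2 difference (x axis, Fgf10 +/- minus wild-type) with 95% confidence interval for each tested gene and for the mean of the 10 Fos features. Black is the fit over all 8 arrays and grey the fit without Fgf10 +/- array 3 and wild-type array 1. In black the intervals of Egr1, Nr4a1 and Junb lie above 0, and leaving out those arrays moves Atf3 from -0.12 to 0.31.

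The arrays differed in how many of the 9 genes they held high. For each array the deviation of each gene from its mean over the 8 arrays was averaged over the 9 genes. This mean deviation was 0.11, 0.15, 0.39 and 0.04 in Fgf10 +/- arrays 1 to 4, and 0.23, -0.17, -0.41 and -0.35 in wild-type arrays 1 to 4. The Fgf10 +/- arrays were all above 0 and 3 of the 4 wild-type arrays below it, and wild-type array 1 lay within the Fgf10 +/- range. Fgf10 +/- array 3 held the highest value of 4 genes (Junb, Egr1, Nr4a1 and Ier2), and wild-type array 1 of Fos and Atf3. Wild-type arrays 3 and 4 each held the lowest value of 3 genes, and in wild-type array 3 none of the 9 was above its mean. Fgf10 +/- array 3 and wild-type array 1 were both high in Fos, with deviations of 0.50 and 0.57. Junb, Egr2, Atf3 and Nr4a1 deviated in opposite directions between them.

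**Figure D4:**
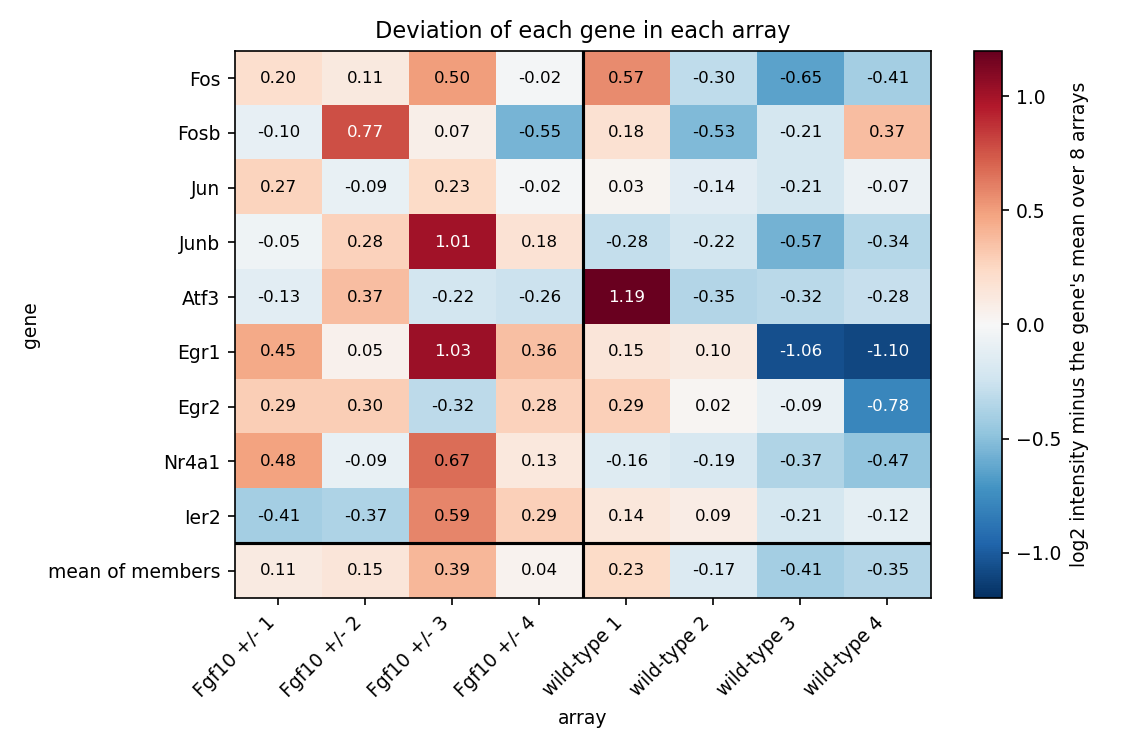
Log2 intensity minus the mean of the gene over 8 arrays (colour and printed number) for the 9 tested genes (rows) in the 8 arrays (columns), with the mean of the 9 in the last row. Fgf10 +/- array 3 stands out by Junb (1.01) and Egr1 (1.03), wild-type array 1 by Atf3 (1.19), and wild-type arrays 3 and 4 by low Egr1 (-1.06 and -1.10).

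Fgf10 +/- array 3 and wild-type array 1 were also left out together. They were picked for their high values of these same 9 genes, so what follows is a description and supports no difference between the genotypes. Leaving out the wild-type array with the highest mean deviation widens the difference by construction, and the median was 0.42 without wild-type array 1 alone. Without both, at 3 against 3, the median difference of the 9 genes was 0.51 and 8 of 9 were above 0, while still none was called by limma. The groups then did not overlap for 5 of the 9 (Fos, Junb, Egr2, Atf3 and Nr4a1), beside 7.4% of all genes, a share for which no arrays were picked on the values of the genes, so nothing is read from it. Fos and Atf3 separated with the removal of wild-type array 1, their highest array, and Egr2 with that of Fgf10 +/- array 3, the lowest of its group, and wild-type array 1, the highest of its own. Egr1 had a difference of 0.97 (SE 0.26, limma adjusted p = 0.163) in that fit and Nr4a1 of 0.51 (SE 0.14, adjusted p = 0.152). The sign of Ier2 turned, to -0.084.

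After the mean of each group was removed, the 9 genes were correlated pairwise over the 8 arrays, as a description only. The 36 Pearson correlations had a median of 0.28 and ran from -0.46 (Junb with Egr2) to 0.82 (Jun with Nr4a1), with 12 above 0.5 and 11 below 0. Other high pairs were Fos with Atf3 (0.79), Junb with Ier2 (0.78), Egr1 with Nr4a1 (0.76) and Fos with Egr1 (0.75). Egr2 and Fosb stood aside, with a median correlation to the other genes of -0.12 and -0.13, against 0.55 for Egr1 and 0.51 for Nr4a1. These values share 8 libraries, and single arrays weigh heavily in them. Of all other tested genes, the 8 most like the mean profile of the 9 after removal of the group means were Lbhd2, Kng1, Atp6v0b, Car13, Dtx3l, 6720432D03Rik, H2-T10 and Slc46a2, with correlations from 0.99 to 0.96 over 8 arrays. Of these, Atp6v0b had a difference of 0.0034 and Kng1 of -0.43 between the genotypes, and none of the 8 was called (limma adjusted p from 0.591 to 0.996). These 8 are the highest of the correlations with all other tested genes. Over only 8 arrays such high values can arise by chance, so no link to the immediate early genes is read from them.

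Among 13 further AP-1, EGR and NR4A family genes none was called (1 had an unadjusted p below 0.05) and 3 were above 0, with a median difference of -0.12. The 3 with the smallest unadjusted p were Maff, a small MAF protein, at -0.30 (SE 0.13, limma adjusted p = 0.391), the FOS relative Fosl1 at -0.71 (SE 0.34, adjusted p = 0.473) and Batf2 at -0.66 (SE 0.32, adjusted p = 0.48). The Fosl1 groups did not overlap, with 2.30 to 2.91 in Fgf10 +/- arrays and 3.06 to 3.56 in wild-type arrays, all near the filter level. Nr4a2, the closest relative of Nr4a1, had a difference of -0.07 (SE 0.17, adjusted p = 0.92). Nr4a2 was chosen after its values were seen, as were Dusp1 and Il1b below.

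Of 32 other primary response genes none was called (2 had an unadjusted p below 0.05), with 16 above 0 and 16 below. Errfi1, a feedback inhibitor of the EGF receptor, had the smallest unadjusted p, with 11.93, 11.58, 12.17 and 11.90 in Fgf10 +/- arrays 1 to 4. In wild-type arrays 1 to 4 Errfi1 read 11.63, 11.45, 11.35 and 11.24, a difference of 0.48 (SE 0.12, limma adjusted p = 0.0928). Only Fgf10 +/- array 2 lay within the wild-type range. The repressor Klf10 had 0.28 (SE 0.12, adjusted p = 0.4) and the matrix protein gene Ccn2, also known as Ctgf, -0.20 (SE 0.10, adjusted p = 0.462).

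In the list of MAP kinase phosphatases and FGF-ERK feedback genes 1 of 16 was called. This was Etv5, an ETS factor downstream of FGF receptors, which rose by 0.41 (SE 0.07, limma adjusted p = 0.0203). Etv5 read 12.19, 12.20, 12.37 and 12.35 in Fgf10 +/- arrays 1 to 4 and 11.90, 11.85, 11.92 and 11.82 in wild-type arrays 1 to 4, so its groups lay apart. The call was lost without the variance trend, and also when any of Fgf10 +/- arrays 3 and 4 or wild-type arrays 2 and 4 was left out (0 of 16 called in each). Dusp1, the immediate early phosphatase of p38 and JNK, read 9.71, 9.03, 10.16 and 9.63 in Fgf10 +/- arrays 1 to 4 and 9.92, 9.13, 8.79 and 8.69 in wild-type arrays 1 to 4. As with Fos and Egr1, Fgf10 +/- array 3 and wild-type array 1 were the highest of their groups and wild-type arrays 3 and 4 the lowest. The difference of Dusp1 was 0.50 (SE 0.26, adjusted p = 0.508). The median of the 16 was 0.09, with 11 above 0.

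Genes that switch on immediate early genes gave no limma call among 20 tested, and 0 had an unadjusted p below 0.05 (median 0.0023, 11 above 0). The ERK-activated kinase Rps6ka3 had 0.54 (SE 0.29, limma adjusted p = 0.524), its relative Rps6ka5 0.60 (SE 0.33, adjusted p = 0.553) and the CREB relative Atf1 -0.22 (SE 0.14, adjusted p = 0.603). Among 11 heat shock genes none was called (1 had an unadjusted p below 0.05) and 6 were above 0 (median 0.014). The co-chaperone Dnajb1 had -0.26 (SE 0.09, adjusted p = 0.274), Hsph1 -0.22 (SE 0.11, adjusted p = 0.519) and Dnaja1 -0.15 (SE 0.09, adjusted p = 0.565). The mean deviation of the heat shock genes was 0.0039 in Fgf10 +/- array 3 and -0.023 in wild-type array 1, within the range of the other 6 arrays (-0.088 to 0.13).

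**Figure D5:**
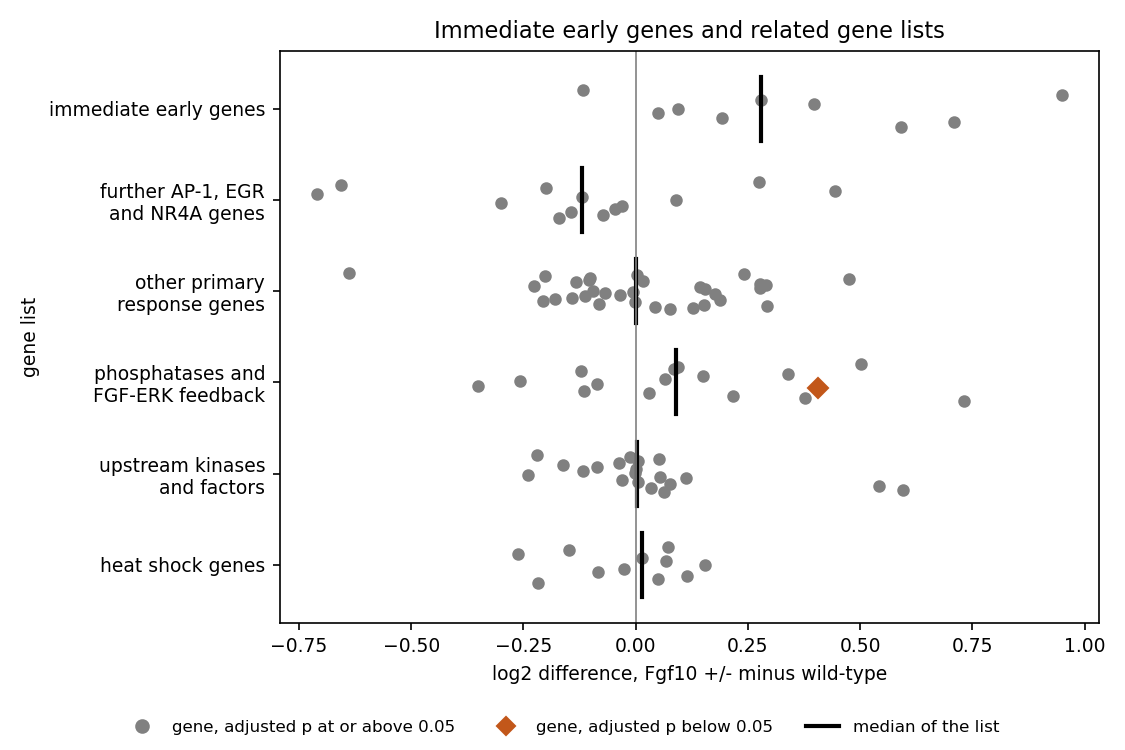
Log2 difference (x axis, Fgf10 +/- minus wild-type) of each tested gene in the immediate early genes and 5 related lists (rows), with the median of each list as a black bar. Orange marks the 1 gene with an adjusted p below 0.05, Etv5. The median of the immediate early genes is 0.28 and that of the further family members -0.12.

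Inflammatory cytokine genes were high in wild-type array 1. Their mean deviation (7 tested genes) was 2.27 there, and between -0.60 and -0.28 in wild-type arrays 2 to 4. Fgf10 +/- array 2 had 1.18, and arrays 1, 3 and 4 of that group lay between -0.98 and -0.50. Their summed intensity (linear scale) ran from 337 to 3186 in wild-type and from 306 to 1090 in Fgf10 +/- arrays, and none of the genes was called (1 had an unadjusted p below 0.05). These were also the 2 arrays with the highest Atf3, 7.79 and 6.97. Il1b, a cytokine of activated macrophages, read 8.40 in wild-type array 1 and 7.63 in Fgf10 +/- array 2, and from 6.35 to 7.20 in the other 6. The part of these cells or signals in the Atf3 and Fos values was not tested. In whole lung, fewer cells of a type and less RNA per cell cannot be told apart.

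Markers of other cell types also differed in level between the groups or single arrays. Among 8 alveolar type 2 markers 3 were called higher (Slc34a2 by 0.72, Abca3 by 0.48 and Lamp3 by 0.51, limma adjusted p from 0.01 to 0.0211), with a summed intensity from 191454 to 211262 in Fgf10 +/- and from 182529 to 190630 in wild-type arrays. Without the variance trend 0 of the 8 were called, and without Fgf10 +/- array 2 there was 1. All 5 smooth muscle markers were below 0, with a median of -0.32, 4 had an unadjusted p below 0.05 and none was called. Their sums ran from 35362 to 41105 in Fgf10 +/- and from 38561 to 51510 in wild-type arrays. All 7 club and ciliated markers were above 0, with a median of 0.23. Of these 2 had an unadjusted p below 0.05 and none was called, with sums from 112188 to 118303 against 105998 to 118046. The type 2 marker Sftpc (15.98 to 15.99) and the club marker Scgb1a1 (15.94 to 15.97) lay at or near the highest array value, 15.99. They leave little room for a difference, and they are part of the counts and sums of their lists. Of 8 macrophage markers 7 were below 0 and none was called (4 had an unadjusted p below 0.05), with sums from 7557 to 7797 against 7804 to 9819. Of 7 neutrophil markers all were below 0 and none was called (0 had an unadjusted p below 0.05), with sums from 14852 to 24162 against 14550 to 31727 and the highest in wild-type array 1. Cardiac muscle markers had a mean deviation of 1.18 in wild-type array 4 and -0.54 in wild-type array 1. Erythroid markers had 0.59 in wild-type array 4 and -0.65 in wild-type array 3. None of either list was called (0 had an unadjusted p below 0.05). The part of any of these cell types in the immediate early gene values was not tested.

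The labelled tissue was checked against its defining markers, with Sftpc, Sftpb, Scgb1a1 and Ager between 12.02 and 15.99 in all arrays and Pecam1 between 7.51 and 8.28, where the median tested gene had 7.33. Fgf10 itself read 7.81 to 8.28 in the arrays labelled Fgf10 +/- and 7.53 to 8.16 in wild-type arrays (difference 0.23, limma adjusted p = 0.653), and all 10 of its features, which may likewise be spots of 1 probe, had a higher mean under the heterozygous label. Where those features lie relative to any deleted part is unknown here, and every direction above rests on the labels. Arrays of a group correlated at 0.975 to 0.985 and arrays of different groups at 0.974 to 0.987 (Pearson, across genes).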

How the data were processed

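The authors deposited log2 intensities of 62976 features on 8 arrays. Per the submitters' processing notes limma was used, for steps not given there, and no source used here states a background correction. The 8 arrays had the same median (3.69) and the same highest value (15.99) to 2 decimals, and nothing was normalized further. Features with a missing value (189) were left out. The platform annotation named 31465 features, of which 29050 were matched to RefSeq by accession for current symbols. Features with a mean below the 30th percentile (2.76) were removed, and the feature with the highest mean stood for each gene. The fit used limma 3.58.1 under R 4.3.3 (eBayes with a variance trend, two-sided) as Fgf10 +/- minus wild-type. Called means a Benjamini-Hochberg adjusted p, over 17234 genes, below 0.05. The fit was tested on simulated data with spreads drawn from its own variance prior. It called 17.7% of genes given a log2 difference of 0.5 and 52.6% of those given 1. Of its calls 4.76% were false. A gene that is not called may therefore still differ.

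The members, gene lists, named genes and alternatives were chosen with earlier results of these data known. Named were the members, called list genes (or, with none called, the 3 with the smallest p in a list of response genes), and the 8 genes most like the members. Dusp1, Nr4a2 and Il1b fall outside this rule, and their values were known when they were picked. Alternatives were other normalizations, filters, feature averaging, variance priors, array weights, a replicate block and arrays left out. The number of arrays limits the precision. The replicate numbers of the titles were not used as pairs, since no source says that they mark a litter or batch.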

Additional observations from a re-analysis of the deposited data

Results flagged for a closer look

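Within each group of 4 arrays the distance of the highest or lowest array to its neighbour was set against the range of the group, for the 9 tested genes and their mean deviation (20 checks). Chance gives about 1 such result in 20 groups, and 2 were found. Atf3 read 7.79 in wild-type array 1 and at most 6.32 in the other wild-type arrays, a gap of 0.954 of the group's range. Egr2 read 5.67 in Fgf10 +/- array 3 and at least 6.27 in the other Fgf10 +/- arrays, a gap of 0.969 of the range. No explanation was tested for either.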

How the results depend on the processing

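No immediate early gene was called in any of the 9 settings tried other than leaving out arrays, nor with 2 arrays left out. The median difference was lowest, 0.192, when all features of a gene were averaged, which took Fos to 0.139. With 1 array left out the count called ranged from 0 to 1 and the count called lower stayed at 0. The median difference in those fits lay between 0.227 and 0.42. With Fgf10 +/- array 3 and wild-type array 1 both left out the median was 0.513 and 25 genes were called higher. The genome-wide counts, 39 higher and 98 lower, ranged from 15 to 54 and from 19 to 129 with 1 array left out, both lowest without wild-type array 2. Without the variance trend 0 genes were called higher and 1 lower.

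Signs turned for genes near 0. With 1 array left out Fosb ranged from -0.148 to 0.294, Ier2 from -0.138 to 0.193 and Atf3 from -0.263 to 0.257. Fosb was -0.148 without Fgf10 +/- array 2 and -0.0656 without wild-type array 2. Ier2 was -0.138, -0.0395 and -0.0134 without Fgf10 +/- array 3, Fgf10 +/- array 4 and wild-type array 3. Atf3 was 0.257 without wild-type array 1. With the 2 arrays left out Ier2 was -0.0838 and Atf3 0.311. Atf3 and Ier2 have 1 feature each, so averaging features cannot change their values. Fos, with 10 features, was 0.386 without both arrays when features were averaged, against 0.55 on its brightest feature. That setting, chosen after seeing the data, called 20 genes higher.

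With the replicate block 35 genes were called higher and 81 lower, and no immediate early gene. Same-numbered arrays did not deviate together (correlations from -0.064 to 0.067), and 1 of 4 Fgf10 +/- arrays correlated best with its own number. The deposited values hold no background level, so what is detectable for Egr3 and Junb is unknown.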
